A study of Mus musculus with 14 samples.

Results

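Of 39756 transcripts compared in mouse inguinal fat, 165 had levels in all 7 transgenic mice that lay wholly to 1 side of the levels in all 7 non-transgenic mice. These separating transcripts made up 0.415% of those compared, 127 higher in transgenic mice (0.319%) and 38 lower (0.0956%). They were chosen by exactly these values. The 200 transcripts of highest mean and those with a mean under 10 were set aside from the 55419 in the table, and each library was divided by its size factor. That factor is the median, over transcripts detected in every library, of a library's value relative to the geometric mean of all 14. A transcript was kept if its lowest value in 1 genotype exceeded its highest value in the other. Every difference between the genotypes below therefore describes the choice and carries no test.

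The tissue was inguinal adipose tissue, a subcutaneous depot, of C57BL/6J mice, sequenced as total RNA. Non-transgenic mice received saline (CON, n = 3, 2 males and 1 female) or CGP (CON_CGP, n = 4, 2 males and 2 females). SRA mice, whose transgene makes the brain's own renin-angiotensin system more active, received saline (SRA, n = 3, 1 male and 2 females) or CGP (SRA_CGP, n = 4, 2 males and 2 females). CGP is described as an agonist of the angiotensin type 2 receptor. The sources used here do not give the transgene's promoter, the age of the mice, or the dose and length of infusion. Each library was taken as 1 mouse, and if that does not hold, spreads between libraries may be technical.

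Renin releases angiotensin I from angiotensinogen, and converting enzyme turns it into angiotensin II, which acts through type 1 and type 2 receptors. Activity of this system in the brain alters sympathetic outflow, and sympathetic nerves drive lipolysis and heat production in fat. Inguinal fat is a white depot in which some adipocytes can take on a heat-producing state. The files name transcripts only by UCSC identifiers of the mm9 mouse build, and 0 of them matched a gene symbol in the reference tables. For this reason no gene, function, position or sequence is assigned to any transcript here, and cell type markers could not be read. In whole tissue, fewer cells of a type and less RNA per cell cannot be told apart.

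The deposited values were normalized counts scaled to nearly the same total in every library, from 79970748 to 79985973, so sequencing depth is unknown. The 200 most abundant transcripts took 28.5% ± 3.12 of that total in transgenic libraries and 24% ± 3.58 in non-transgenic ones (SD, n = 7 each; 2-sided exact permutation p = 0.0286, adjusted over 2 tests 0.0286). Size factors were 0.944 ± 0.0678 and 1.07 ± 0.0828 (SD, n = 7 each; 2-sided exact permutation p = 0.0122, adjusted 0.0245), with ranges of 0.854 to 1.06 and 0.93 to 1.16. The scaling itself thus differed between the genotypes. In 6 libraries (CON replicate 3, SRA replicate 3, CON_CGP replicates 1 and 4, SRA_CGP replicates 1 and 3) transcripts almost exclusive to the other sex stood at 3.91% to 15% of their level in that sex. In the other 8 they reached at most 1.58%. These transcripts, 12 of males and 49 of females, were picked by level from these same libraries. A set of 40 transcripts seen almost only in SRA replicate 3 stood at 5.22% of its level in SRA_CGP replicate 1 and at 6.53% in SRA_CGP replicate 3, against at most 0.841% in the other 11 libraries. In turn, 11 transcripts abundant in SRA replicates 1 and 2 and at most 1 in non-transgenic mice stood at 6.56% of their level in SRA replicate 3. None of the separating transcripts belonged to either set, 0 in each. The sets held 40 and 11 of the 55419 transcripts and lay near 0 in most libraries, so such transcripts could hardly separate the genotypes. Both sets were picked by level from these same libraries. Whether libraries shared material, and whether that had a part in the separation, was not tested.

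The widest separation belonged to uc008qvw.2, a transcript of low abundance that was higher in SRA mice. Its rescaled values were 14, 15.5 and 12.1 in CON and 11.8, 17.8, 7.4 and 7.9 in CON_CGP. In transgenic mice they were 59.7, 65.9 and 100.7 in SRA and 86, 74.5, 75.7 and 48.7 in SRA_CGP. The lowest transgenic value, in SRA_CGP replicate 4, was well above the highest non-transgenic value, in CON_CGP replicate 2, by a gap of 1.41 log2 units. Gaps and differences are on the log2(value + 1) scale, which understates the change of transcripts with low values. Its mean was 73 ± 17.2 in transgenic and 12.4 ± 3.81 in non-transgenic mice (SD, n = 7 each), a ratio of 5.63 on that scale. The spread among transgenic mice was small beside the difference.

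The second largest gap was that of uc009aeh.2, also low and also higher in SRA mice. It lay at 10.5, 13.6 and 10.3 in CON and at 8.6, 9.8, 3.7 and 16.8 in CON_CGP. It rose to 41.9, 71.2 and 387.7 in SRA and to 48.6, 34, 113 and 32.5 in SRA_CGP. The genotypes did not overlap, with a gap of 0.91 log2 units. The transgenic mice, however, were far from uniform. SRA replicate 3 stood apart from the other 6, and SRA_CGP replicate 3 came next. The transgenic mean of 104 ± 128 (SD, n = 7) therefore says little of a typical mouse. Transcripts seen almost only in SRA replicate 3 were also found, at low levels, in SRA_CGP replicate 3 and in SRA_CGP replicate 1, which lay at 48.6. Whether these libraries shared material, and whether that had a part in these values, was not tested. In the 8 libraries with other-sex transcripts at no more than 1.58% the values were 32.5 to 71.2 in 4 transgenic mice and 3.69 to 13.6 in 4 non-transgenic ones.

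**Figure D1:**
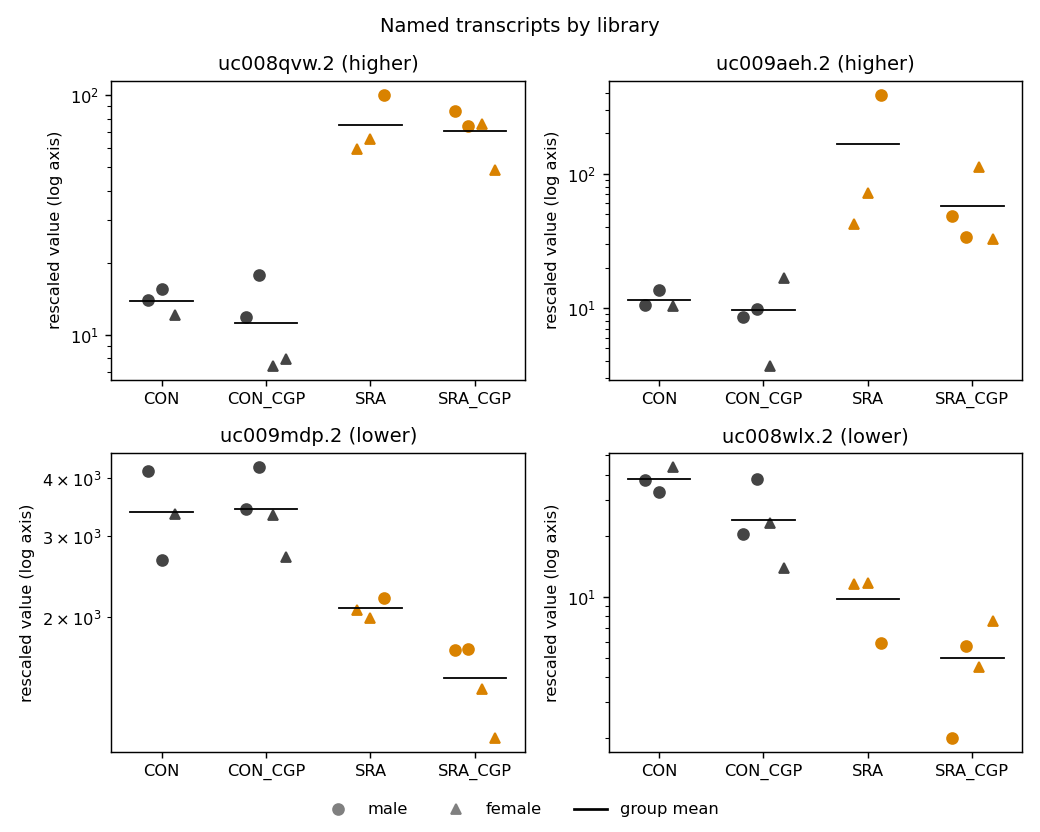
Rescaled values (log axis) of the 4 named transcripts, 2 in each direction, by group. Points are libraries (circles male, triangles female) and lines are group means; in every panel the 7 transgenic points lie to 1 side of the 7 non-transgenic points, and SRA replicate 3 of uc009aeh.2 stands alone at 387.7.

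Among transcripts lower in SRA mice, uc009mdp.2 had the largest gap and was abundant. Its values were 4152, 2661 and 3340 in CON and 3430, 4233, 3330 and 2694 in CON_CGP. They fell to 2074, 1995 and 2204 in SRA and to 1699, 1703, 1396 and 1094 in SRA_CGP. The gap was 0.27 log2 units, between CON replicate 2 and SRA replicate 3. The mean was 1738 ± 394 in transgenic and 3406 ± 621 in non-transgenic mice (SD, n = 7 each), a ratio of 0.505. All 4 SRA_CGP values lay below all 3 SRA values.

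The second of the lower transcripts, uc008wlx.2, was at 37.7, 33 and 43.9 in CON and at 20.4, 38.2, 23.1 and 13.8 in CON_CGP. It was at 11.5, 11.7 and 5.9 in SRA and at 2, 5.7, 4.5 and 7.6 in SRA_CGP. CON_CGP replicate 4 came closest to the transgenic mice, which left a gap of 0.22 log2 units. The mean was 6.98 ± 3.58 in transgenic and 30 ± 11 in non-transgenic mice (SD, n = 7 each), a ratio of 0.249. The counting error at values this low could not be computed, because depth is unknown.

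Apart from these, the gaps were narrow. A pair of near-identical transcripts, higher in SRA mice, had gaps of 0.41 and 0.39 log2 units, with non-transgenic values of 92.4 to 196 and transgenic values of 256 to 1634. In both of them SRA replicate 3 was again the highest library. No other transcript reached 0.2 log2 units, so that 4 of the 127 higher and 2 of the 38 lower transcripts passed that mark. The median gap was 0.034 log2 units among the higher and 0.05 among the lower transcripts. In all, 95 of the 165 had a gap under 0.05.

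The edge of the rule fell in a continuous distribution. The least separated of the higher transcripts had a lowest transgenic value of 179.2 and a highest non-transgenic value of 179.1. The nearest transcript on the other side of the rule had 3215 and 3216. Among the lower transcripts, the least separated had a highest transgenic value of 3575 and a lowest non-transgenic value of 3580, and the nearest to miss had 880.8 and 880. Overlaps of less than 0.05 log2 units kept 257 further transcripts out. Another 5 missed by a tie at 0. These lay at 0 in all 7 non-transgenic libraries, at 54 to 321 in SRA replicates 1 and 2, at 4 to 20 in SRA replicate 3 and at 0 to 2 in the SRA_CGP libraries (deposited values). None of the 200 most abundant transcripts separated the genotypes (0 higher and 0 lower). Of the 8280 detected transcripts with a mean under 10, 2 were higher and 7 lower throughout.

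**Figure D2:**
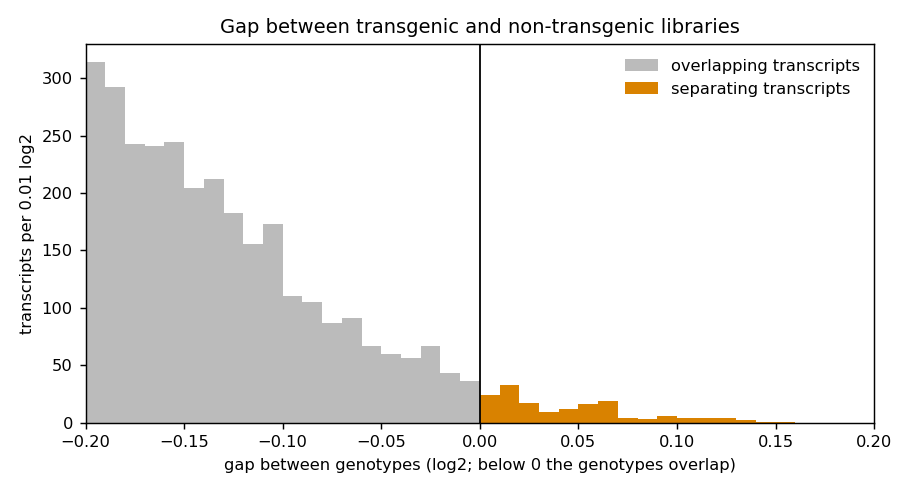
Number of transcripts (vertical axis, per 0.01 log2 unit) by the gap between the genotypes (horizontal axis, log2; negative where they overlap). Separating transcripts, to the right of 0, continue the slope of the overlapping ones, and the 6 with gaps of at least 0.2 lie beyond the range drawn.

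The separating transcripts were mostly of moderate to high abundance and differed little in size. Their median mean level was 1157, against 607 for all transcripts compared. The 127 higher transcripts had a median ratio of 1.26 (quartiles 1.18 and 1.38), and the 38 lower ones of 0.68 (quartiles 0.576 and 0.816). A difference of at least 1.5-fold was reached by 41 of the 165 (24.8%), against 17.2% of all transcripts compared. At least 2-fold was reached by 12 (7.27%), 7 higher and 5 lower, against 5.72%. The rule itself favours transcripts that vary little within a genotype. The median coefficient of variation among the 7 non-transgenic libraries was 7.42% in the higher and 11% in the lower transcripts, against 20.6% over all compared.

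Many of the 165 repeated each other. Transcripts whose values agreed within 0.1 log2 units in every library were grouped, which left 115 clusters, 86 higher and 29 lower. Of these, 26 clusters held 2 or more members, 76 transcripts in all. The largest held 8 higher transcripts, at 2529 to 3107 in non-transgenic and 3117 to 3547 in transgenic mice, with ratios of 1.18 in each. The largest of the lower clusters held 5 transcripts at 881 to 1085 in non-transgenic and 657 to 879 in transgenic mice, with ratios of 0.818 to 0.819. In the order of their identifiers, 90 of the 165 stood directly beside another separating transcript, in 33 runs of up to 6. All 33 runs kept to 1 direction, and 71 of these 90 transcripts also had a near-identical member. Near-identical transcripts may share reads, and the sources used here do not say how reads were divided among them. A further 6 transcripts that missed the rule were near-identical to a member.

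Across libraries the 127 higher transcripts moved by different amounts. Relative to the non-transgenic mean, their median was highest in SRA_CGP replicate 3 (0.4 log2) and SRA replicate 3 (0.37). It was 0.3 and 0.32 in SRA replicates 1 and 2 and 0.32 in SRA_CGP replicate 4. It was lowest in SRA_CGP replicates 1 (0.21) and 2 (0.23). The medians of the non-transgenic libraries lay between -0.06 and 0.08.

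For the 38 lower transcripts the median was lowest in SRA replicate 3 (-0.63 log2) and SRA replicate 2 (-0.57). It was least displaced in SRA_CGP replicates 1 (-0.33) and 2 (-0.31). The non-transgenic libraries ranged from -0.12 to 0.16. The same transgenic libraries were thus near the edge in both directions, and the plot of each transcript by library shows them as the palest transgenic columns.

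**Figure D3:**
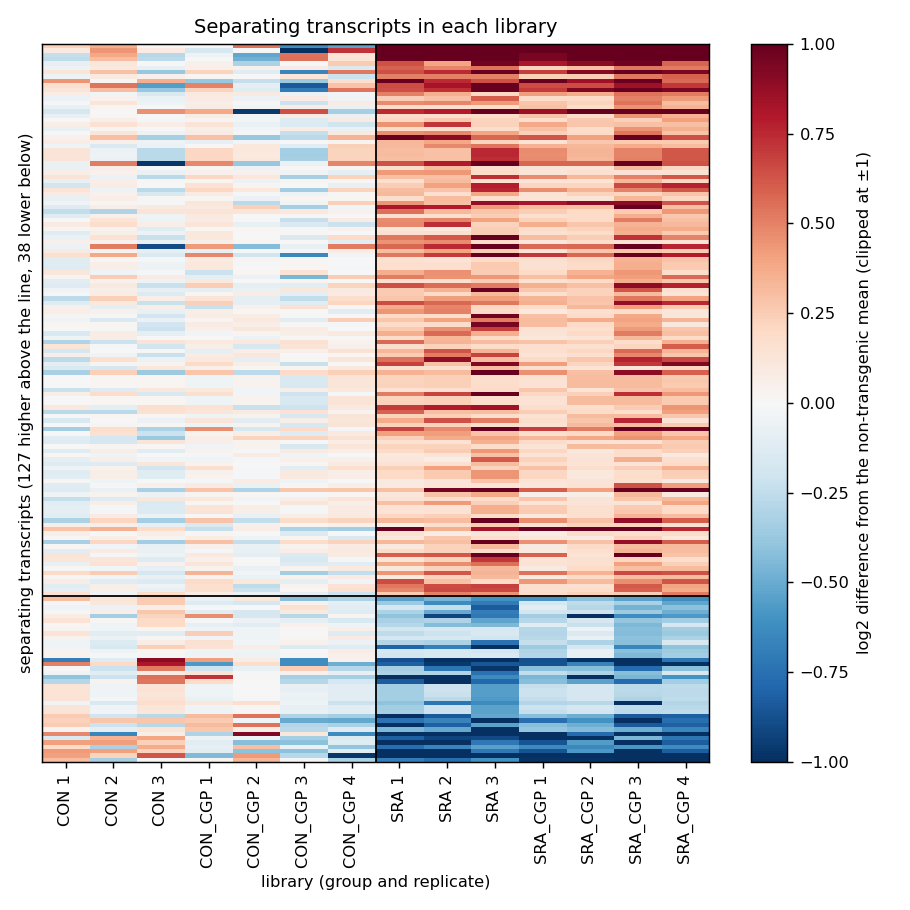
Log2 difference of each separating transcript (rows, 127 higher above the horizontal line and 38 lower below, widest gaps at the outer edges) from its non-transgenic mean, in each library (columns), with colours clipped at 1 unit. Transgenic libraries fill the right of the vertical line, where SRA replicate 3 and SRA_CGP replicate 3 are darkest among the higher transcripts.

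Some libraries were at the extremes more often than others. By the rule, only a transgenic library can be the highest in a higher transcript or the lowest in a lower one. How often each library was the extreme over all transcripts compared was not counted. The counts below are therefore not read as a trait of the separating transcripts. SRA replicate 3 was the highest of all 14 in 53 of the 127 higher transcripts and the lowest in 17 of the 38 lower ones. SRA_CGP replicate 3 was the highest in 34 and the lowest in 7. The transgenic library nearest to the other genotype was SRA_CGP replicate 1 in 51 of the higher transcripts and SRA_CGP replicate 2 in 20 of the lower. On the non-transgenic side CON_CGP replicate 4 was the nearest in 36 and 16. Of these, SRA replicate 3, SRA_CGP replicates 1 and 3 and CON_CGP replicate 4 are among the 6 with transcripts of the other sex.

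Which transcripts separated, and how many in each direction, depended on the scaling of the libraries. With the values as deposited 155 transcripts separated the genotypes (0.39%), but only 37 were higher (0.0931%) and 118 lower (0.297%) in SRA mice. After quantile normalization there were 137 (0.345%), 83 higher (0.209%) and 54 lower (0.136%). Over all transcripts compared, the median difference between the genotypes was 0.01 log2 with median-of-ratios scaling, -0.17 for deposited values and -0.01 with quantile normalization. A genotype difference of about that size can therefore appear or vanish with the scaling.

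Of the 127 higher transcripts, 14 also separated as deposited and 67 after quantile normalization. Of the 38 lower ones, 20 and 27 did so. None separated in the opposite direction under either scaling (0 of 165 in each). A reversal would need all 7 transgenic libraries to cross all 7 others, so this was nearly fixed by the choice. Separation under all 3 scalings held for 22 transcripts in 19 clusters, 11 higher and 11 lower. The 11 higher ones had ratios of 1.31 to 6.49 (median 1.84) and the 11 lower ones of 0.249 to 0.783 (median 0.631). The 4 transcripts named above were among them. Their gaps were also taken under the other scalings, with the 200 most abundant transcripts kept, and with each single library left out. A last alternative left out all 6 libraries with other-sex transcripts. Over these 18 alternatives the gaps ran from 1.13 to 1.7 log2 units for uc008qvw.2 and from 0.78 to 1.2 for uc009aeh.2. They ran from 0.27 to 0.47 for uc009mdp.2 and from 0.1 to 0.91 for uc008wlx.2.

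**Figure D4:**
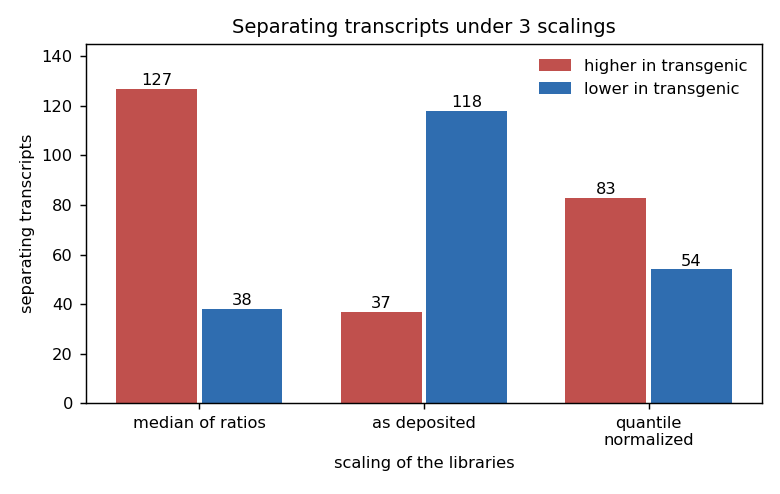
Number of separating transcripts (vertical axis) higher (red) and lower (blue) in SRA mice under 3 ways of scaling the 14 libraries. The split is 127 to 38 with median-of-ratios rescaling, 37 to 118 as deposited and 83 to 54 after quantile normalization.

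The 14 mice also divide into 7 males and 7 females, and the same transcripts were compared by sex. All females lay above or below all males in 1195 transcripts (3.01%), 1072 higher (2.7%) and 123 lower (0.309%) in females. A transcript that separates the genotypes cannot also separate the sexes, since each genotype held both. The infusions, 8 mice against 6, were separated by 38 transcripts (0.0956%).

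Each infusion was then taken alone, so that the 2 comparisons had no library in common. Transcripts seen almost only in SRA replicate 3 also appeared in SRA_CGP replicates 1 and 3. Whether these libraries shared material was not tested. The saline groups also differed in sex, with 2 males and 1 female in CON and 1 male and 2 females in SRA. Under saline, 7204 transcripts lay higher (18.1%) and 7905 lower (19.9%) in all 3 SRA than in all 3 CON mice. Under CGP, 679 lay higher (1.71%) and 383 lower (0.963%) in all 4 SRA_CGP than in all 4 CON_CGP mice. Separating 4 from 4 mice is a stricter condition than 3 from 3, so these shares do not compare the genotype difference between infusions. The share that ordering alone would give was not computed, so neither list is read as a set of real differences. Of the transcripts higher under saline, 260 were also higher under CGP, which is 3.61% of the saline list and 38.3% of the CGP list. All 127 higher separating transcripts are among these 260, because the rule demands both. Only 7 were higher under saline and lower under CGP (0.0972% of the saline list). Of those lower under saline, 104 were also lower under CGP, or 1.32% of the saline list and 27.2% of the CGP list, and 11 were higher under CGP (0.139%). The 104 likewise include all 38 lower separating transcripts. The counts by infusion moved with the scaling as well. With the values as deposited, 2486 transcripts were higher (6.25%) and 14427 lower (36.3%) under saline, and 373 higher (0.938%) and 635 lower (1.6%) under CGP. Of these, 104 were higher and 224 lower under both infusions. After quantile normalization, 5580 were higher (14%) and 9144 lower (23%) under saline, and 707 higher (1.78%) and 316 lower (0.795%) under CGP. Then 195 were higher and 110 lower under both.

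Among the 165 separating transcripts the genotype difference was larger under saline than under CGP in 122 (73.9%). The same held for 71.8% of all transcripts compared. The median size of the difference was 0.44 log2 under saline and 0.3 under CGP, against 0.32 and 0.18 over all transcripts. Saline groups held 3 mice and CGP groups 4. Whether the genotype difference itself changed with infusion was tested with limma, and the model across all transcripts called none at an adjusted p under 0.05 (0 of 39756, 0%). An unadjusted p under 0.05 was found for 3 of the 165 and for 1731 of all (4.35%). The count among the 165 moved with the setting. It was 13 with the values as deposited (1586 of all) and 15 after quantile normalization (1698 of all). With the replicate block it was 12 (2812 of all). Without SRA replicate 3 limma called 3 of 39682 for this interaction, 0 of them among the 165.

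**Figure D5:**
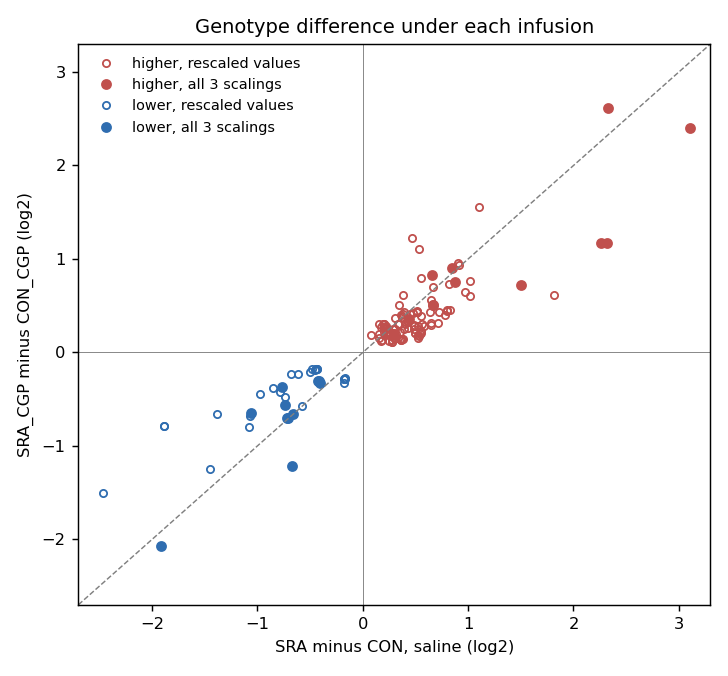
Genotype difference of each separating transcript under saline (horizontal axis, log2) and under CGP (vertical axis, log2), with filled points for the 22 transcripts that separate under all 3 scalings. The dashed line marks equal differences, and 122 of the 165 points have the larger difference under saline.

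CGP changed none of the separating transcripts past the threshold. In non-transgenic mice limma called 0 of the 165 and 0 of all transcripts (0%), and 3 of the 165 had an unadjusted p under 0.05, against 4.11% of all. In SRA mice it again called 0 of the 165 and 0 of all (0%), with 9 at an unadjusted p under 0.05, against 6.86% of all. Without SRA replicate 3 it called 28 of 39682 there, and without SRA_CGP replicate 3 it called 6 of 39800, with 0 of the 165 in each. Averaged over both genotypes it called 0 of the 165 and 1 of all (0.00252%), with 5 of the 165 at an unadjusted p under 0.05, against 6.56% of all. The count over all transcripts was 0 with the replicate block and in most other settings, and 21 without SRA replicate 3. The rule limits the spread within each genotype, CGP effects included, so fewer calls among the 165 are built into their choice.

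For uc009mdp.2 the difference between SRA_CGP and SRA was -0.57 ± 0.17 (log2, SE), from 2091 ± 106 (SD, n = 3) to 1473 ± 291 (SD, n = 4). It did not pass (limma adjusted p = 0.726), although the groups did not overlap. In non-transgenic mice the same difference was 0.07 ± 0.17 (limma adjusted p = 0.976), and the test of 1 response against the other gave -0.64 ± 0.24 (limma adjusted p = 0.934). Over both genotypes uc008wlx.2 differed by -0.81 ± 0.32 under CGP (limma adjusted p = 0.746). For uc008qvw.2 the CGP differences were -0.26 ± 0.26 in non-transgenic and -0.17 ± 0.26 in SRA mice (limma adjusted p = 0.972 and 0.946). For uc009aeh.2 the difference in SRA mice was -1.15 ± 0.71 (limma adjusted p = 0.775). Without SRA replicate 3 it was -0.08 ± 0.64 (limma adjusted p = 0.998).

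Sex differed in 2 of the 165 transcripts, against 2139 of all (5.38%). Each genotype held both sexes, so the rule limits sex differences as it does CGP effects, and the lower share is built into the choice. Both were lower in females and near-identical, uc011zae.1 and uc011zaf.1, named here after their values were seen. For uc011zae.1 limma gave a log2 difference of -0.48 ± 0.09 (SE, adjusted p = 0.0103), and for uc011zaf.1 one of -0.47 ± 0.09 (limma adjusted p = 0.012). Non-transgenic males had 5340, 3904, 5562 and 6534 of uc011zae.1, and non-transgenic females 3686, 3636 and 3527. Transgenic males had 3120, 3322 and 3189, and transgenic females 2194, 2494, 2497 and 2542. Within each genotype, males lay above females without overlap. The lowest non-transgenic female lay above the highest transgenic male, as the rule demands of every lower transcript. Neither passed without the 6 libraries that held transcripts of the other sex, where limma called 0 of the 165 and 686 of 39705 in all. With the replicate number as a block it called 4 of the 165 and 2242 of all, and with the values as deposited 1 and 2106. Of the 4 transcripts named first, none passed for sex. The nearest was uc008qvw.2, lower in females by a log2 difference of -0.56 ± 0.19 (limma adjusted p = 0.135).

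The number of separating transcripts depended on single libraries, since each one left out removes a condition that a transcript must meet. Without SRA_CGP replicate 2 the count was 334 higher and 301 lower, without CON_CGP replicate 1 it was 448 and 57, and without CON replicate 2 it was 247 and 91. It was 240 and 92 without CON_CGP replicate 4 and 215 and 82 without SRA_CGP replicate 1. The lower transcripts alone moved by over 1.5-fold without CON_CGP replicate 3 (106), SRA replicate 3 (69) or SRA_CGP replicate 4 (65). Without the 6 libraries that held other-sex transcripts, 1515 higher and 666 lower transcripts separated the remaining 4 from 4 mice (5.49%). There all CON mice were male and all SRA mice female. The 4 transcripts named first, uc008qvw.2, uc009aeh.2, uc009mdp.2 and uc008wlx.2, separated the genotypes in every one of these settings. Leaving libraries out can hardly undo a wide gap, so this was nearly fixed by their choice. Where a mean of at least 50 was asked, uc008qvw.2 and uc008wlx.2 were filtered out.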

How the data were processed

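RNA of inguinal fat from 14 mice was isolated with Trizol and a column, treated with DNase and made into Illumina libraries (per the labels' protocols). Per the submitters' processing notes, FastQC, Bowtie and edgeR were used with the build mm9. Their versions and roles, and the counting, were not given in the sources used here. Each value the authors deposited is a score: a whole number headed as a normalized count, whose method of normalization the file leaves unsaid. Columns were tied to mice by the number in each sample's description, with 0 columns left over.

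The 200 transcripts of highest mean and those with a mean under 10 were dropped. The rest were divided by median-of-ratios size factors, taken from 38989 transcripts without zeros. A gap is the log2(value + 1) distance between the nearest libraries of the 2 genotypes. The 2 transcripts of largest gap in each direction, 1 per near-identical cluster (within 0.1 log2 units in every library), were named. Contrasts other than genotype were tested with limma 3.58.1 in R 4.3.3, with a term per group and for sex, robust trended variance, and Benjamini-Hochberg adjustment over all 39756 transcripts at 0.05. This test was also run on simulated data, in which transcripts varied independently and held no genotype or sex difference, unlike these data. Its outcome there is not used here. Permutation tests were exact, in scipy 1.17.1.

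Values were not whole reads, so count models were not used. The planned gene lists and markers were not run, because identifiers could not be paired with symbols. The members, lists and tests were chosen with earlier results of these data known. Same-numbered mice of SRA and SRA_CGP deviated together (3 pairs, r from 0.128 to 0.624), above the criterion of 0.1 for pairing, as did those of CON and SRA (r from 0.13 to 0.319). The criterion was not met between CON and CON_CGP (r from -0.24 to 0.11) or between CON_CGP and SRA_CGP (r from -0.26 to 0.57). What a number marks is left unsaid by the labels. Alternatives were the scaling, filters, pseudocounts of 5 and 0.2, a replicate block, no sex term, and each library left out. Leaving out the 6 libraries with other-sex transcripts (above 3%) was chosen after seeing the data.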

Additional observations from a re-analysis of the deposited data

Results flagged for a closer look

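The level of uc009aeh.2 in SRA replicate 3, 387.7, lay far from those of the other 6 transgenic mice, which ran from 32.5 to 113. The gap to the next library was 0.773 of the whole range, above Dixon's 95% critical value for 7 samples. This ratio was taken on rescaled values. It was not taken on the log2(value + 1) scale used for gaps and differences, on which a high value stands out less. The level was the single outlier among 16 sets of values looked at, some of which share libraries. Chance alone marks about 1 in 20 independent sets of normally distributed values.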

How the results depend on the processing

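The counts of 127 higher and 38 lower separating transcripts became 37 and 118 with the values as deposited, and 83 and 54 after quantile normalization. Asking for a gap of at least 0.2 log2 units left 4 and 2. Of the same 39756 transcripts, 1026 and 1098 separated in males alone (3 transgenic and 4 non-transgenic). In females alone (4 and 3) the counts were 5963 and 6375. Fewer mice had to separate in each sex than in all 14, but equally many in males as in females. The cause of the difference between the sexes was not tested. With each library left out in turn they ranged from 124 to 448 and from 37 to 301, transcripts separated in the same direction under both infusions from 381 to 1330 (364 with all libraries), and those separated by sex from 1227 to 1635. Without the 6 libraries with other-sex transcripts these 4 counts were 1515, 666, 5626 and 8017, the first 2 containing 124 and 38 of the original transcripts. Since leaving libraries out only removes conditions, nearly all of the original transcripts had to remain. limma called 0 of the 165 for CGP in either genotype, over both genotypes, and for the interaction in all 23 alternatives of each, the replicate block included. For sex it called 2, and 1 with the values as deposited, 4 with the replicate block, 0 without the 6 libraries and 2 without any single library. Over all transcripts, the 1 call for CGP over both genotypes was lost with the block (0). It was also lost with quantile normalization, either pseudocount, a mean of at least 50, or no sex term, and without most single libraries. Without SRA replicate 3 the calls over all transcripts were 28 for CGP in SRA, 21 over both genotypes and 3 for the interaction. Without SRA_CGP replicate 3 they were 6, 1 and 0. Among the 165 the block changed no other count of calls. For the changes with scaling, with the block and with libraries left out the cause was not tested. Depth is unknown, so counting error at low values cannot be given.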
